A study of Mus musculus with 6 samples.

Results

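The genes described here are 8 genes of MHC class II antigen presentation, taken by symbol from the 25701 genes of a count table of CD11b+ cells from mouse tumors. They are the chains of the classical class II molecules *H2-Aa*, *H2-Ab1* and *H2-Eb1*, the chains of the peptide exchange factor H2-M *H2-DMa*, *H2-DMb1* and *H2-DMb2*, the invariant chain *Cd74*, and the transactivator *Ciita*. All 8 were found, and all 8 passed the filter on low counts that left 13485 genes for testing. Poly-A RNA was sequenced from CD11b+ cells that had been positively selected with magnetic beads from collagenase-digested TC1 tumors. There were 3 MCT2 CO and 3 MCT2 KO libraries. The sources do not say whether a library came from 1 mouse or from pooled mice, and each is read as 1 mouse below. TC1 cells are a transformed line of mouse lung epithelium. All mice carried MCT2 loxP/loxP and the mCre-Tg transgene on a C57BL/6 background and were 8 weeks old at treatment. The MCT2 KO mice were given tamoxifen once a day for 5 days, 180 µg per g of body weight, and the MCT2 CO mice received vehicle. After a further 2 days, 100000 TC1 cells were injected under the skin of the flank, and the tumors grew for 24 days. Deletion in the host was systemic and inducible, so it was not restricted to macrophages, and the injected tumor cells did not carry the floxed allele. With no Cre-negative mice given tamoxifen among the samples, an effect of tamoxifen and an effect of the deletion cannot be told apart. The sample records name the tissue as lung, whereas the methods describe flank tumors.

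MHC class II molecules hold peptides from endocytosed proteins at the surface of dendritic cells, B cells and activated macrophages, where CD4+ T cells read them. The α and β chains assemble around the invariant chain, which blocks the groove and directs the complex to endosomes. Proteases there trim the invariant chain to a short fragment, and H2-M exchanges that fragment for other peptides. Transcription of these genes is set by CIITA, a coactivator that does not bind DNA itself. It docks on the RFX complex, CREB and NF-Y, which occupy the X, X2 and Y boxes of the promoters, and interferon-γ induces *Ciita* in macrophages.

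The promoter windows of class II genes are shown because these boxes are where the factors that CIITA joins are known to bind. The X and Y letters were found together in 3 of the 8 members, *H2-Eb1*, *H2-DMb1* and *H2-DMb2*. Promoters, taken from RefSeq on GRCm38.p6 as 250 bases before to 50 bases after each start, were matched for 5 of the 8 members. Those of *H2-Ab1*, *Cd74* and *Ciita* were not matched. Letters in capitals mark an X box (the core AACNNATG, where N is any base), an X2 box (TGACGTCA) or a Y box (TGATTGG), searched on both strands. These letters were chosen after the sequences had been seen. Each sequence is written 5′ to 3′ along the strand of its gene, which is the minus strand for *H2-Aa* (chr17:34287855-34287909) and the plus strand for *H2-Eb1* (chr17:34305766-34305824), *H2-DMb2* (chr17:34145116-34145175), *H2-Ob* (chr17:34238808-34238864) and *H2-Eb2* (chr17:34325533-34325591). *H2-Ob* and *H2-Eb2* are class II genes that are not among the 8 and stand here for comparison. The promoter of *H2-Oa*, also a class II gene outside the 8, held a Y box but neither an X box nor an X2 box, and is not printed.
H2-Aa: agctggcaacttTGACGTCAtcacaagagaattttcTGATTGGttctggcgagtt
H2-Eb1: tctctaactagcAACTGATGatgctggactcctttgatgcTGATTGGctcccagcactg
H2-DMb2: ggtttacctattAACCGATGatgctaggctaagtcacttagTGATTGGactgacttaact
H2-Ob: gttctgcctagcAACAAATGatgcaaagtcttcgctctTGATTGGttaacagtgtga
H2-Eb2: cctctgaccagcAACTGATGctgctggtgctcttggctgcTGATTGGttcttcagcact

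The X and Y boxes lay 20 bases apart in *H2-Eb1* and *H2-Eb2*, 21 in *H2-DMb1* and *H2-DMb2*, and 18 in *H2-Ob*. The window of *H2-DMb1* lies in the first exon of the GENCODE M21 transcript and is not printed. In *H2-Aa* an X2 box stood 16 bases before the Y box, and the X letters did not match. The Y letters alone were present in 7.82% of the 32851 mouse promoters, the X letters in 8.86% and the X2 letters in 1.79%. An X box followed by a Y box within 40 bases on the same strand was found in 20 promoters (0.0609%), of which 5 were of class II genes, namely *H2-DMb1*, *H2-DMb2*, *H2-Eb1*, *H2-Eb2* and *H2-Ob*. An X2 box followed by a Y box was found in 8 promoters (0.0244%), of which *H2-Aa* was the class II gene. Since the letters were chosen after the class II sequences had been seen, these shares cannot test whether the pairs are particular to class II genes. Neither of the RefSeq promoters of *H2-DMa* held any of the 3 motifs, which says only that these letters are not in those windows.

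The chains and the H2-M genes lie in the class II region of chromosome 17, by GENCODE M21 on GRCm38. *H2-DMa* (ENSMUSG00000037649) lies from 34119541 to 34139101, *H2-DMb2* (ENSMUSG00000037548) from 34143307 to 34151555 and *H2-DMb1* (ENSMUSG00000079547) from 34153072 to 34160230. *H2-Ab1* (ENSMUSG00000073421) lies from 34257689 to 34269419, *H2-Aa* (ENSMUSG00000036594) from 34282744 to 34287823 and *H2-Eb1* (ENSMUSG00000060586) from 34305867 to 34316674. *Cd74* (ENSMUSG00000024610) lies on chromosome 18 from 60803848 to 60812652 and *Ciita* (ENSMUSG00000022504) on chromosome 16 from 10480059 to 10528418. All are on the plus strand except *H2-Aa*, and all are protein-coding.

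The authors counted reads per gene with featureCounts, and the total counts ranged from 24863611 to 31713704 per library. Levels are given as CPM, read counts scaled to library size by TMM. The gene lengths of the table equal whole gene spans, and genes lying inside the span of another gene had few or no counts: *B2m*, the light chain of class I molecules, had 0 counts in all 6 samples, and *Itgam*, which encodes CD11b, had 0, 0 and 0 in MCT2 CO and 0, 1 and 0 in MCT2 KO. Among the members this concerns *Ciita*, 71.2% of whose exon bases lie in the span of *Dexi*, and *H2-DMa*, of which 14.8% lie in the span of *Brd2*. Their levels may therefore be understated. *H2-DMb1* and *H2-DMb2* are near copies, with 93.9% identity over the aligned bases of their transcripts, and 26.8% of the 50-base windows of *H2-DMb2* occur unchanged in *H2-DMb1*, so reads could be split or lost between them. The targeted gene *Slc16a7*, which encodes MCT2, had 481, 287 and 298 counts in the MCT2 CO mice and 196, 162 and 133 in the MCT2 KO mice, without overlap in CPM. Its log2 fold change of -1.05 (standard error 0.24) had an adjusted p of 0.370 by edgeR's quasi-likelihood test. Of 11 macrophage markers that passed the filter, every one was expressed in every library, and their summed level with *Itgam* ran from 7461 to 11154 CPM in MCT2 CO and from 7241 to 15176 CPM in MCT2 KO.

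*Cd74* and the classical chains were among the genes with the most counts in these cells, and the other members ranked 989 or lower in every sample. Counts of the 8 genes made up 0.923%, 1.32% and 0.907% of all counts in the 3 MCT2 CO mice, in the order of their replicate numbers, and 1.57%, 0.549% and 1.05% in the 3 MCT2 KO mice. *Cd74* was the gene with the most counts in MCT2 CO replicate 2 and in MCT2 KO replicate 1, ranked 3 in MCT2 KO replicate 3, 5 in both other MCT2 CO samples, and 15 in MCT2 KO replicate 2. Per kilobase of the principal transcript, the order of levels was *Cd74*, *H2-Aa*, *H2-Ab1*, *H2-Eb1*, *H2-DMb1*, *H2-DMa*, *H2-DMb2* and *Ciita*, and it was the same in each of the 6 samples. In MCT2 CO, *Cd74* stood at 3108 ± 763 CPM per kb (SD, n = 3), *H2-Aa* at 1725 ± 356, *H2-Ab1* at 1599 ± 371 and *H2-Eb1* at 1116 ± 255. The levels of the H2-M genes were lower, at 103 ± 20.3 CPM per kb for *H2-DMb1*, 77.1 ± 9.61 for *H2-DMa* and 9.47 ± 0.966 for *H2-DMb2* (SD, n = 3). *Ciita* had 2.28 ± 0.694 CPM per kb (SD, n = 3). Across the 6 samples the ranges of neighbours in this order overlapped from *Cd74* to *H2-Eb1* and between *H2-DMb1* and *H2-DMa*. They did not overlap between *H2-Eb1* and *H2-DMb1*, between *H2-DMa* and *H2-DMb2*, or between *H2-DMb2* and *Ciita*. The level of *Ciita* per kilobase uses its whole transcript, although 71.2% of its exon bases lie in the span of *Dexi*. The last place of *Ciita* and its gap from *H2-DMb2* are therefore not settled. Reads of *H2-DMb2* may be split with or lost to *H2-DMb1*, so the size of its gap from *H2-DMa* is uncertain too. If counting ran over whole gene spans, reads in introns were counted as well, although the transcript length was used here for all 8 genes. *H2-Ea*, the α chain that pairs with *H2-Eb1*, is annotated as a polymorphic pseudogene in the reference C57BL/6 genome, and had 5, 2 and 4 counts in MCT2 CO and 2, 0 and 0 in MCT2 KO.

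**Figure D1:**
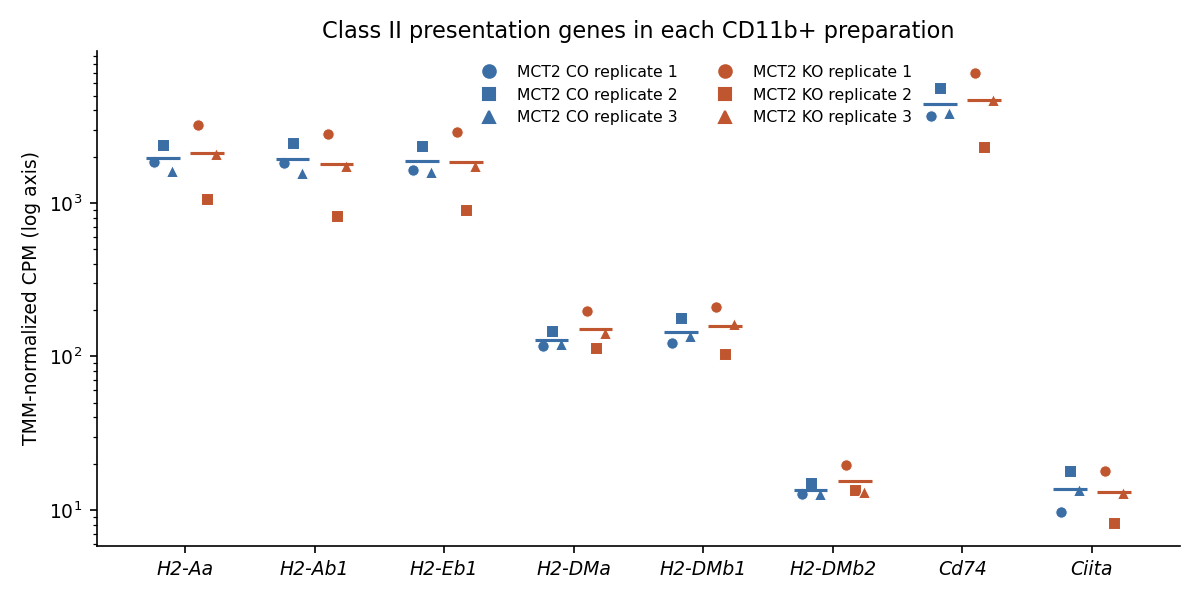
TMM-normalized CPM of the 8 class II genes on a log axis, with 1 point per mouse and a line at the mean of each group of 3. MCT2 KO replicate 1 (circle) is the highest MCT2 KO point for every gene, and for *H2-Aa*, *H2-Ab1*, *H2-Eb1* and *Cd74* MCT2 KO replicate 2 (square) is far below the other 5 samples.

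The comparison of MCT2 KO with MCT2 CO asked whether class II genes of tumor CD11b+ cells differ when MCT2 is deleted in the host. None of the 8 genes differed by the test. The levels in MCT2 KO mice lay on both sides of the MCT2 CO levels for 6 of the 8, all but *H2-DMb2* and *Ciita*, and the spread among the MCT2 KO mice, up to 3.43-fold, exceeded every difference between the group means.

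*H2-Aa*, the α chain of I-A, stood at 1833, 2392 and 1614 CPM in MCT2 CO replicates 1 to 3 and at 3205, 1053 and 2073 CPM in MCT2 KO replicates 1 to 3. The highest and the lowest of the 6 samples were both MCT2 KO, and the groups overlapped. Its log2 fold change was 0.12 (standard error 0.35, 95% interval -0.70 to 0.94), with an adjusted p of 0.936 by edgeR's quasi-likelihood test. On the linear scale that interval runs from 0.615-fold to 1.91-fold.

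*H2-Ab1*, the β chain of I-A, stood at 1805, 2439 and 1571 CPM in MCT2 CO and at 2828, 825 and 1745 CPM in MCT2 KO. It had the widest range of the 8 genes, 3.43-fold between MCT2 KO replicates 1 and 2. The log2 fold change was -0.11 (standard error 0.39), the 95% interval on the linear scale ran from 0.498-fold to 1.73-fold, and the adjusted p was 0.948 by the same test. *H2-Eb1*, the β chain of I-E, stood at 1647, 2352 and 1587 CPM in MCT2 CO and at 2896, 902 and 1751 CPM in MCT2 KO, again with both extremes in MCT2 KO. Its log2 fold change was -0.01 (standard error 0.37, 95% interval -0.87 to 0.85; adjusted p = 0.996 by edgeR).

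*Cd74*, the invariant chain, which is also a surface receptor for the cytokine MIF, stood at 3688, 5622 and 3837 CPM in MCT2 CO and at 6987, 2323 and 4644 CPM in MCT2 KO. The order of the mice from high to low was that of *H2-Aa* except that MCT2 CO replicates 1 and 3 changed places. The log2 fold change was 0.09 (standard error 0.36, 95% interval -0.75 to 0.92), with an adjusted p of 0.956 by edgeR's quasi-likelihood test.

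The H2-M genes spread less. *H2-DMa*, the α chain of H2-M, stood at 118, 146 and 120 CPM in MCT2 CO and at 197, 114 and 142 CPM in MCT2 KO, and *H2-DMb1*, its β chain, at 122, 177 and 135 CPM against 209, 104 and 162 CPM. *H2-DMb2*, the second β chain gene of the mouse, stood at 12.7, 15.1 and 12.7 CPM in MCT2 CO and at 19.5, 13.5 and 13.1 CPM in MCT2 KO. For each of them MCT2 KO replicate 1 was the highest sample, and the groups overlapped. The log2 fold changes were 0.24 (standard error 0.19) for *H2-DMa*, 0.13 (0.24) for *H2-DMb1* and 0.19 (0.17) for *H2-DMb2*, with adjusted p values of 0.724, 0.891 and 0.767 by edgeR. The 95% intervals ran from -0.20 to 0.69, from -0.43 to 0.69 and from -0.21 to 0.58.

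*Ciita* stood at 9.67, 18.0 and 13.5 CPM in MCT2 CO and at 17.9, 8.20 and 12.8 CPM in MCT2 KO. It was the only member with its highest value in an MCT2 CO mouse, replicate 2, which exceeded MCT2 KO replicate 1 by little. Its log2 fold change was -0.08 (standard error 0.31, 95% interval -0.79 to 0.63), with an adjusted p of 0.949 by edgeR's quasi-likelihood test.

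A gene counted as called when its adjusted p did not exceed 0.05 and its log2 fold change was 0.58 or more in either direction, the thresholds of the study. By these, edgeR called 0 of the 8 genes and 0% of all genes tested. At an unadjusted p under 0.05 there were 0 of 8, against 9.37% of all genes tested, and DESeq2 also called 0 of 8, against 0.586% of the same genes and 0.448% when run on every gene with a count. In 0 of 8 genes did the 3 MCT2 KO values lie wholly above or below the 3 MCT2 CO values, as they did in 15.8% of all genes tested. The median log2 fold change of the 8 was 0.10. MCT2 KO was higher for 5 genes and lower for 3, beside 50.1% of all genes tested that were higher. By exact two-sided permutation tests on CPM, the p values of the 8 genes ranged from 0.5 to 1.0, where 3 mice against 3 cannot give less than 0.1. These intervals were wide enough that a difference of the size of the threshold, 0.58, lay inside them for all of the 8 genes except at the lower end for the H2-M genes. In a bulk preparation, fewer cells that express a gene and less RNA per cell cannot be told apart.

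Single mice decided the sign. Without MCT2 KO replicate 1 the log2 fold change of *H2-Aa* was -0.31 and that of *Cd74* -0.32, and without MCT2 KO replicate 2 they were 0.44 and 0.41. For *H2-Ab1* the same pair of values was -0.59 and 0.24, for *H2-Eb1* -0.48 and 0.32, and for *Ciita* -0.38 and 0.17. *H2-DMa* alone kept its sign with each mouse left out in turn, from 0.0092 to 0.41. None of the 8 genes was called in any of these fits.

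**Figure D2:**
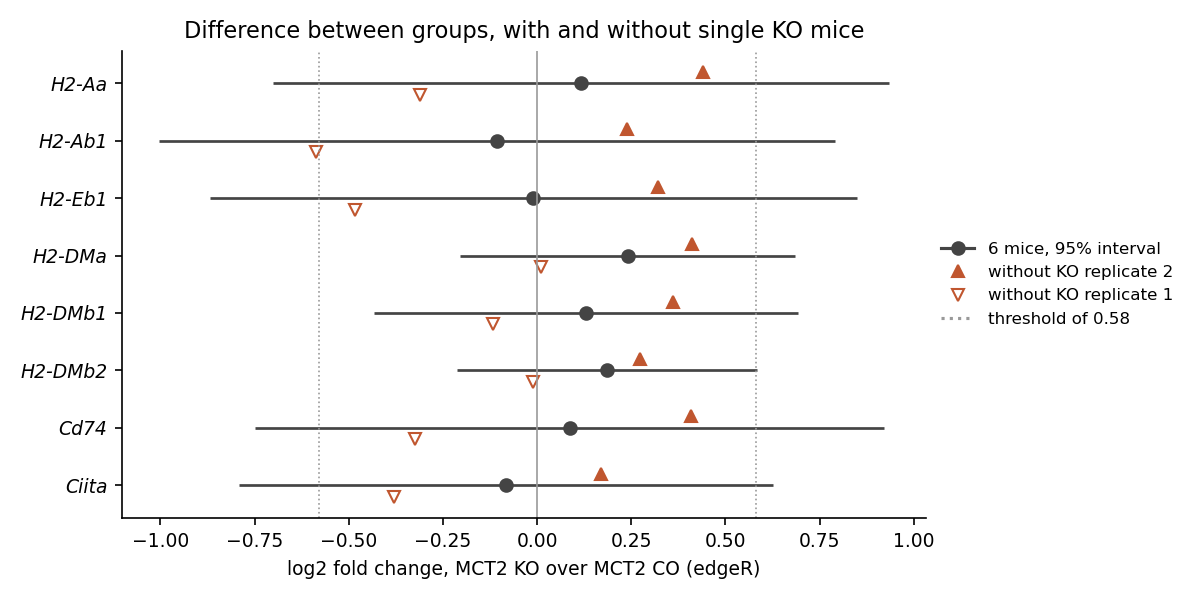
Log2 fold change of MCT2 KO over MCT2 CO from edgeR for each class II gene. Circles with lines give the estimate and 95% interval from 6 mice, filled triangles the value without MCT2 KO replicate 2 and open triangles the value without MCT2 KO replicate 1, and dotted lines mark the threshold of 0.58; every interval crosses 0.

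The spread within groups was large for these genes compared with others. The SD of log2 CPM within groups was 0.61 for *H2-Aa*, 0.67 for *H2-Ab1*, 0.64 for *H2-Eb1* and 0.62 for *Cd74*, each above that of at least 96.0% of the genes tested. For *Ciita* it was 0.51, above 93.1% of genes, and for *H2-DMb1*, *H2-DMa* and *H2-DMb2* it was 0.41, 0.31 and 0.25. The median over all genes tested was 0.16. These levels rest on many counts, 67450 for *H2-Ab1* in MCT2 KO replicate 1 and 26866 in MCT2 KO replicate 2.

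The 8 genes followed the same mice. MCT2 KO replicate 1 was the highest sample for 7 of 8, all but *Ciita*, and MCT2 KO replicate 2 the lowest for 7 of 8, all but *H2-DMb2*. Both held for 6 of 8 members (75.0%), compared with 7.33% of all genes tested and 8.28% of the genes with a mean of at least 10 CPM. The second highest sample was MCT2 CO replicate 2 for the same 7 genes that were highest in MCT2 KO replicate 1. These counts describe 6 mice, and the genes are not independent of each other. The pattern was taken from these same genes, so the shares cannot test whether it is particular to them.

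The other genes of class II presentation were grouped by role. The remaining class II chains were at low levels. *H2-Ob*, the β chain of H2-O, which inhibits H2-M, stood at 6.74, 8.50 and 7.60 CPM in MCT2 CO and at 7.38, 2.79 and 5.26 CPM in MCT2 KO (log2 fold change -0.57, standard error 0.31, adjusted p = 0.600 by edgeR). Its partner *H2-Oa* ran from 1.60 to 3.48 CPM and *H2-Eb2* from 1.23 to 2.64 CPM, and both had MCT2 KO replicate 1 as the highest and MCT2 KO replicate 2 as the lowest sample, like the members. Of the class II chains outside the 8, 0 of 3 were called, and all 3 had negative log2 fold changes.

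The factors that bind the class II promoters varied little between mice. The ratio of the highest to the lowest sample was between 1.11 (*Creb1*) and 1.62 (*Rfxap*) for the 7 genes of RFX, NF-Y and CREB, and their median SD within groups was 0.093. *Rfx5*, a DNA-binding subunit of RFX, stood at 70.4, 69.6 and 70.0 CPM in MCT2 CO and at 63.5, 58.0 and 67.2 CPM in MCT2 KO, without overlap (log2 fold change -0.16, standard error 0.08, adjusted p = 0.590 by edgeR). *Nfyc*, a subunit of NF-Y, also did not overlap, with 49.0 to 57.5 CPM in MCT2 CO and 45.2 to 48.6 CPM in MCT2 KO (log2 fold change -0.15, adjusted p = 0.645 by edgeR). Of the 7 genes, 0 were called, 2 were higher and 5 lower in MCT2 KO, and 2 did not overlap with MCT2 KO lower, beside 8.77% of all genes tested.

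The endosomal enzymes that prepare antigen and trim the invariant chain were all higher in MCT2 KO by their log2 fold change, 7 of 7, with a median of 0.31, and 0 of 7 were called. *Ifi30*, the thiol reductase GILT, which opens disulfide bonds of antigens, stood at 263, 256 and 207 CPM in MCT2 CO and at 400, 337 and 317 CPM in MCT2 KO. The groups did not overlap, and the log2 fold change of 0.54 (standard error 0.13) had an adjusted p of 0.380 by edgeR's quasi-likelihood test. *Ctsd*, cathepsin D, stood at 207, 201 and 187 CPM against 262, 227 and 271 CPM, also without overlap (log2 fold change 0.35, standard error 0.10, adjusted p = 0.416 by edgeR), although 63.7% of its exon bases lie in the span of another gene. These were 2 of 7 genes not overlapping with MCT2 KO higher, beside 7.07% of all genes tested. *Ctss*, cathepsin S, which makes the last cuts in the invariant chain of macrophages and B cells, stood at 2135, 1925 and 1408 CPM in MCT2 CO and at 2844, 1337 and 2248 CPM in MCT2 KO, so that its highest and lowest mice were those of *Cd74*. The other members of the list were *Ctsb* (0.37), *Lgmn* (0.31), *Sppl2a* (0.11) and *Ctsl* (0.02), given as log2 fold changes.

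Genes of class II turnover and costimulation also gave no call, 0 of 3 in each list. *Cd83*, which stabilizes class II and CD86 at the surface by opposing the ubiquitin ligase MARCH1, stood at 169, 143 and 113 CPM in MCT2 CO and at 230, 75.9 and 133 CPM in MCT2 KO, a range of 3.02-fold with the same extreme mice as *Cd74*. *March1* (*Marchf1*) stood at 88.8, 81.6 and 64.8 CPM against 118, 60.9 and 97.0 CPM. The log2 fold changes of *Cd80*, *Cd86* and *Cd40* were 0.01, -0.07 and 0.17.

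**Figure D3:**
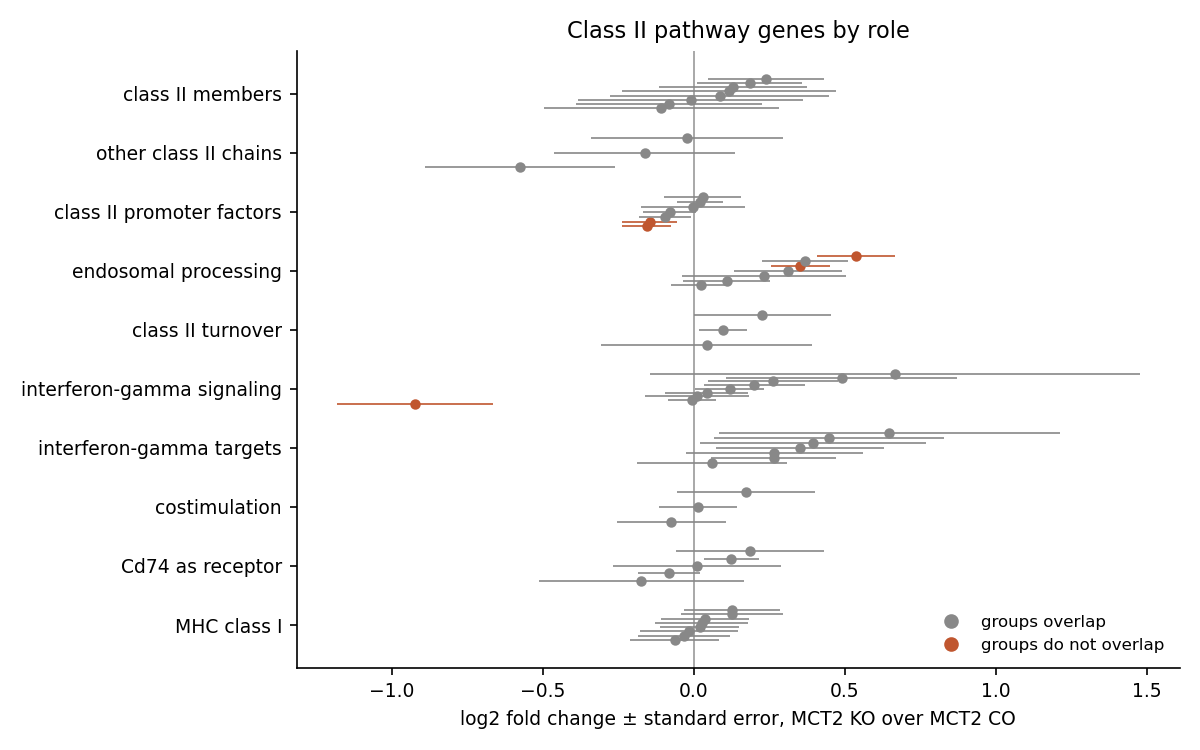
Log2 fold change of MCT2 KO over MCT2 CO with its standard error for each tested gene of the class II lists, 1 point per gene. Points in orange mark the 5 of 52 list genes, beside 15.8% of all genes tested, in which the groups of 3 mice do not overlap (*Rfx5*, *Nfyc*, *Ifi30*, *Ctsd* and *Socs1*); no gene shown was called.

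Interferon-γ and its targets were highest in another mouse than the class II genes. *Ifng* stood at 1.07, 3.12 and 2.37 CPM in MCT2 CO and at 2.31, 0.491 and 7.67 CPM in MCT2 KO. *Irf1*, an interferon-induced factor that acts on a *Ciita* promoter, stood at 110, 195 and 118 CPM against 145, 121 and 328 CPM. Among the interferon-γ targets that passed the filter, MCT2 KO replicate 3 was the highest sample for 7 of 7. It was the highest for 0 of 8 class II members and for 12.2% of all genes tested. Among the MCT2 CO mice, replicate 2 was the highest for each of these targets and for each class II member. Of the 9 interferon-γ signaling genes, 3 were highest in MCT2 KO replicate 3 and 4 in MCT2 KO replicate 1. MCT2 KO replicate 2 was the lowest sample for 4 of these 9 and for 2 of the 7 targets, beside 22.7% of all genes tested. Both extremes of the class II members were found in 2 of the 9, beside 7.33% of all genes tested. The part of interferon-γ in the class II levels was not tested. *Gbp2*, an interferon-induced GTPase, stood at 126, 218 and 103 CPM in MCT2 CO and at 157, 129 and 323 CPM in MCT2 KO. *H2-Aa* in the same MCT2 KO replicate 3, at 2073 CPM, lay within the range of the MCT2 CO mice. All 7 targets had positive log2 fold changes, with a median of 0.35, and 0 of 7 were called. *Cxcl10* and *Igtp* were not tested, since 100% and 96.9% of their exon bases lie in other spans and they had 0 or nearly 0 counts. *Socs1*, an inhibitor of interferon-γ signaling, was the 1 of 9 signaling genes without overlap, beside 8.77% of all genes tested with MCT2 KO lower, at 7.64, 6.23 and 6.81 CPM in MCT2 CO and 4.49, 2.27 and 4.22 CPM in MCT2 KO (log2 fold change -0.92, standard error 0.26, adjusted p = 0.426 by edgeR).

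MHC class I genes, which present peptides to CD8+ T cells, had a narrower range than class II genes. *H2-K1* and *H2-D1*, the class I heavy chains, differed 1.41-fold and 1.40-fold between their highest and lowest samples, compared with 3.04-fold for *H2-Aa*. The median SD within groups was 0.22 for the 8 class I genes tested and 0.56 for the 8 class II members. MCT2 KO replicate 2 was the lowest sample for 7 of 8 class I genes, as for the class II members, but the highest was MCT2 KO replicate 3 for 5 of 8 and MCT2 KO replicate 1 for 0 of 8. Of the 8, 0 were called, with log2 fold changes from -0.06 to 0.13. Over all 9 lists, 52 of 55 genes were tested, 36 were higher and 16 lower in MCT2 KO, the median log2 fold change was 0.04, and 0 were called. The groups did not overlap in 5 of the 52, beside 15.8% of all genes tested.

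**Figure D4:**
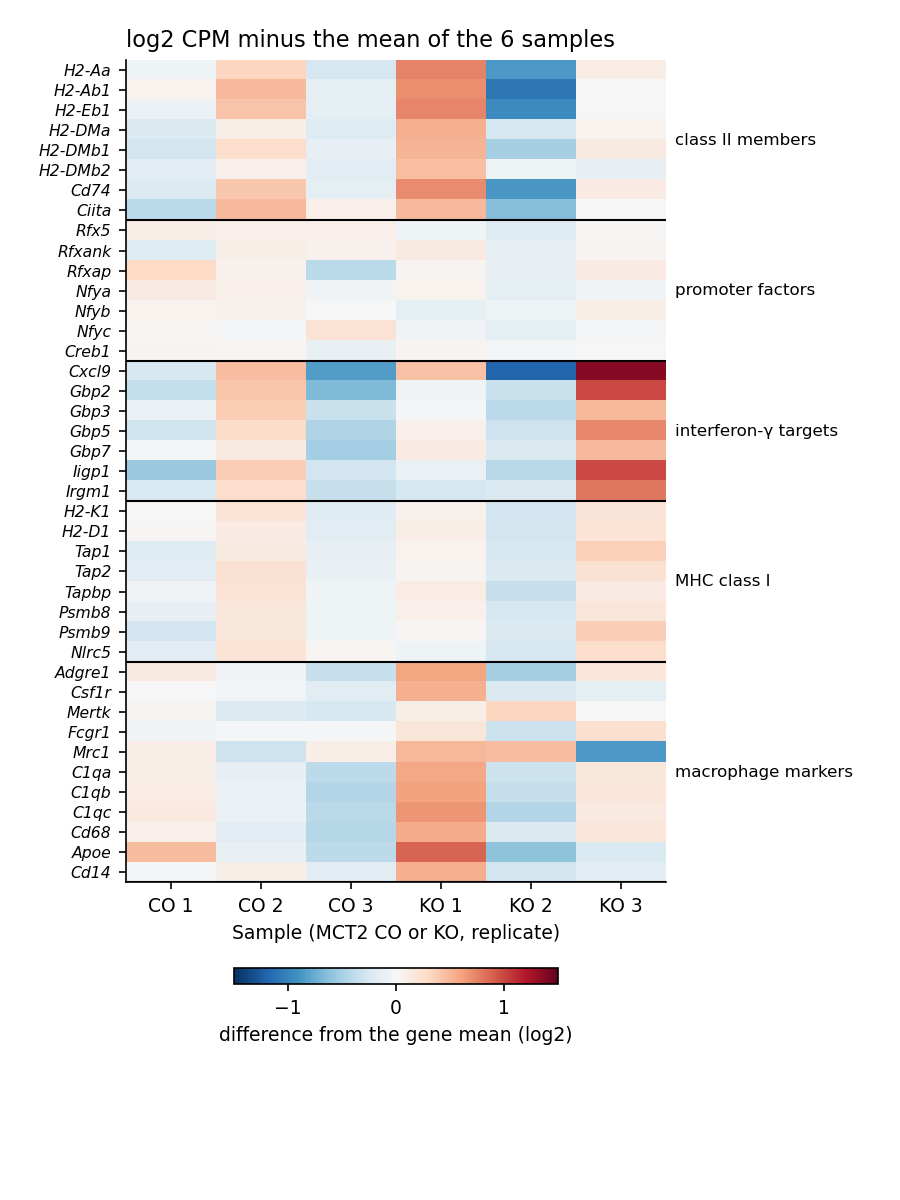
Difference of log2 CPM from each gene's mean over the 6 samples, in color, for the class II members and for lists of promoter factors, interferon-γ targets, MHC class I genes and macrophage markers, with 1 column per mouse. The class II rows are reddest in MCT2 KO replicate 1 (all but *Ciita*) and bluest in MCT2 KO replicate 2 (all but *H2-DMb2*), the interferon-γ targets are reddest in MCT2 KO replicate 3, and the promoter factors are pale in all columns.

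Levels of cell type markers also differed between these mice. Macrophage markers were highest in MCT2 KO replicate 1 for 9 of 11, beside 20.4% of all genes tested. They were lowest in MCT2 KO replicate 2 for 6 of 11, beside 22.7% of all genes tested. Both held for 5 of 11, beside 7.33% of all genes tested. All 11 were higher in MCT2 KO by their log2 fold change, with a median of 0.23, and the groups overlapped for each. The summed macrophage level was 11154, 8835 and 7461 CPM in MCT2 CO and 15176, 7241 and 9269 CPM in MCT2 KO. B cells and dendritic cells express class II genes at high levels. The summed level of 12 B cell markers was 88.2 to 105 CPM in MCT2 CO, and 109, 29.0 and 117 CPM in MCT2 KO replicates 1 to 3. Of the 9 tested, 8 were lower in MCT2 KO by their log2 fold change, 4 of them without overlap, beside 8.77% of all genes tested. *Ighm*, the heavy chain of IgM, made up most of it, while *Cd79a*, a defining B cell marker, stood at 1.10, 1.77 and 3.42 CPM against 0.419, 0.583 and 0.522 CPM. The summed level of 12 dendritic cell markers was 150 to 188 CPM in MCT2 CO and 189, 122 and 154 CPM in MCT2 KO. *Fscn1* alone ran from 73.9 to 101 CPM over the 6 samples. Of these 12 genes 9 were lower in MCT2 KO by their log2 fold change, 1 of them (*Zbtb46*) without overlap, beside 8.77% of all genes tested. For 2 of 12, MCT2 KO replicate 1 was the highest and MCT2 KO replicate 2 the lowest sample, beside 7.33% of all genes tested. *Ccr7*, 1 of these 2, carried by migrating dendritic cells, stood at 13.8, 19.1 and 14.3 CPM in MCT2 CO and at 27.5, 4.85 and 17.2 CPM in MCT2 KO, with the same order of the MCT2 KO mice as *Cd74*. T cell markers summed to 58.3, 14.7 and 96.2 CPM in MCT2 KO and fibroblast markers to 1819, 1815 and 1708 CPM, beside 44.1 to 68.3 CPM and 2045 to 3355 CPM in MCT2 CO. Of 8 neutrophil markers tested, 7 were higher in MCT2 KO with a median log2 fold change of 1.70, and 6 of 8 did not overlap with MCT2 KO higher, beside 7.07% of all genes tested. The summed level of 10 neutrophil markers was 83.3 to 103 CPM in MCT2 CO and 186, 69.6 and 138 CPM in MCT2 KO. *Csf3r* made up most of it, at 93.0, 94.3 and 70.9 CPM in MCT2 CO and 120, 41.1 and 118 CPM in MCT2 KO (log2 fold change 0.11). The sum therefore mainly follows *Csf3r*, and not the markers without overlap. NK cell markers summed to 42.0 to 65.9 CPM in MCT2 CO and 47.8 to 94.2 CPM in MCT2 KO. Of these 8 markers, however, 5 were lower in MCT2 KO by their log2 fold change, with a median of -0.28. In 3 of 8 the groups did not overlap with MCT2 KO lower, beside 8.77% of all genes tested. *Gzmb* (log2 fold change 0.64) and *Prf1* (1.12) were higher in MCT2 KO, whereas *Gzma* was lower (-1.09). Monocyte markers summed to 328 to 418 CPM in MCT2 CO and 350 to 461 CPM in MCT2 KO. The part of cell composition in the class II levels was not tested.

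The ratio of the I-A chains within a library did not overlap between the groups, although their levels did. *H2-Aa* and *H2-Ab1* encode partners of one heterodimer, and the ratio of their counts was 1.02, 0.981 and 1.03 in MCT2 CO and 1.13, 1.28 and 1.19 in MCT2 KO. All MCT2 KO values lay above all MCT2 CO values, with means of 1.01 ± 0.0243 and 1.20 ± 0.0727 (SD, n = 3), a difference of 0.25 on the log2 scale. The exact two-sided permutation test gave p = 0.1, the smallest that 3 against 3 allows. As a share of the counts of both genes, *H2-Aa* made up 50.4% (95% Wilson interval 50.1 to 50.7), 49.5% (49.2 to 49.8) and 50.7% (50.3 to 51.0) in MCT2 CO and 53.1% (52.9 to 53.4), 56.1% (55.7 to 56.5) and 54.3% (54.0 to 54.6) in MCT2 KO. These intervals cover counting error only. The log2 difference was between 0.20 and 0.29 with each mouse left out in turn. Its sign could not change in these fits, because the groups did not overlap.

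*H2-Ab1* was also lower relative to *Cd74*, with ratios of 0.489, 0.434 and 0.409 in MCT2 CO and 0.405, 0.355 and 0.376 in MCT2 KO. The highest MCT2 KO value and the lowest MCT2 CO value were close, and the log2 difference was -0.23 (exact permutation test, two-sided, p = 0.1). The ratio of *H2-Ab1* to *H2-Eb1* overlapped between groups, with means of 1.04 ± 0.0536 in MCT2 CO mice and 0.962 ± 0.0430 in MCT2 KO mice (SD, n = 3). So did that of *H2-Aa* to *Cd74*, with means of 0.448 ± 0.0427 and 0.453 ± 0.00623 (SD, n = 3). Of the 28 ratios among the 8 genes, 2 did not overlap, both with *H2-Ab1*. Among the 6 members with a mean of at least 100 CPM this was 2 of 15 ratios (13.3%), and 14.4% of all pairs of the 2661 genes at that level did not overlap, so the share among class II genes was near the background.

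**Figure D5:**
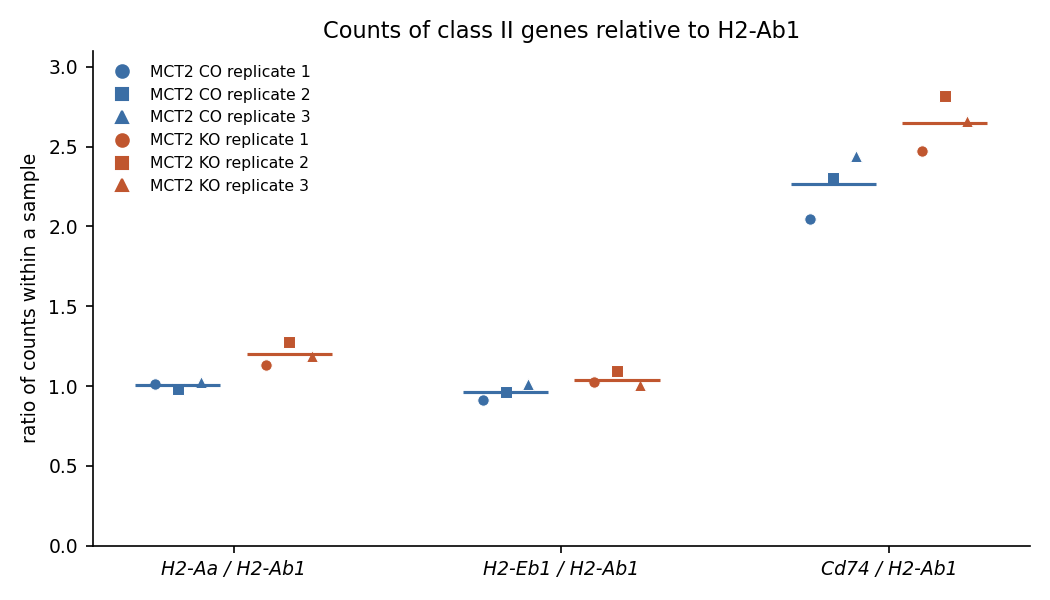
Ratio of the counts of *H2-Aa*, *H2-Eb1* and *Cd74* to those of *H2-Ab1* within each sample, with 1 point per mouse and a line at the mean of each group of 3. The MCT2 KO points for *H2-Aa* and *Cd74* lie above all MCT2 CO points, and those for *H2-Eb1* overlap them.

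The genes most like the class II pattern were ranked by Pearson's r over the 6 samples with the mean log2 CPM of *H2-Aa*, *H2-Ab1*, *H2-Eb1* and *Cd74*, among 10614 genes with a mean of at least 5 CPM. The first 5 were *Ttc7* (r = 0.999), *Arhgap45* (0.995), *Arhgef1* (0.995), *Fut4* (0.993) and *Slc66a1* (0.993). *Arhgap45* stood at 164, 197 and 161 CPM in MCT2 CO and at 238, 118 and 172 CPM in MCT2 KO, a smaller range than that of *H2-Aa*. *Ttc7* stood at 101, 112 and 96.8 CPM against 123, 79.6 and 102 CPM. With 6 samples and 10614 genes, values of r this high are a description of these libraries. The remaining members had r values of 0.948 for *H2-DMb1*, 0.899 for *Ciita*, 0.853 for *H2-DMa* and 0.688 for *H2-DMb2*.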

How the data were processed

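The authors checked reads with FastQC 0.12.0 and MultiQC 1.28, used STAR 2.7.11b for alignment to GRCm38 and deposited raw counts per gene from featureCounts 2.1.1 (versions from the submitters' processing notes). The annotation, feature type and strand setting are not given in the sources used here. The libraries were 3 MCT2 CO and 3 MCT2 KO, grouped by sample title. P values of the fits weigh the difference between the groups against the spread between these mice.

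Counts were filtered with filterByExpr (minimum count 10, total 15), scaled by TMM and tested by edgeR 4.0.16's quasi-likelihood test in R 4.3.3, with Benjamini–Hochberg adjustment over 13485 genes. DESeq2 1.42.0, limma 3.58.1 (voom), other scalings, no filter, a replicate block and leaving out each mouse were alternatives. Motifs and positions were read with Python 3.11.15. The procedure was tested on simulated data. No replicate pair was close enough to be a single library deposited again.

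The members and lists were chosen with earlier results of these data known. Named genes are the members, *Slc16a7*, the list genes, marker genes with high or 0 levels, genes overlapping a member, and the 5 most alike. *Cd79a*, *Zbtb46* and *Ccr7* were named after their values were seen, and so were the mice whose shares of highest or lowest values are given. Positions and overlaps between spans are from GENCODE M21 on GRCm38, by Ensembl ID, and not from the table. Only 2.22% of the table's starts match it, although 98.1% of spans have the same length. The table may therefore use another build than the stated GRCm38, which was not tested.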

Additional observations from a re-analysis of the deposited data

How the results depend on the processing

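Under the alternatives run, 0 of the 8 class II members and 0 of the pathway genes were called in every fit. For the whole table the count of called genes was 0 in the edgeR analysis, 79 by DESeq2 on the same genes, 83 by DESeq2 on every gene with a count, 2 in edgeR without a filter, and between 0 and 2 with each mouse left out, the 2 coming without MCT2 KO replicate 2. The smallest adjusted p of a member was 0.713 outside the fits that leave out a mouse and 0.407 within them. Of 104 alternative values of the members' log2 fold changes, 17 had the opposite sign, 14 of them with a mouse left out. The others were *H2-Eb1* by DESeq2 on every gene with a count (0.0016) and *Cd74* by limma-voom (-0.010) and with the replicate block (-0.012). Over the fits that leave out a mouse, the log2 fold change ran from -0.32 to 0.41 for *Cd74*, -0.38 to 0.17 for *Ciita*, -0.31 to 0.44 for *H2-Aa*, -0.59 to 0.24 for *H2-Ab1*, -0.48 to 0.32 for *H2-Eb1*, -0.12 to 0.36 for *H2-DMb1* and -0.012 to 0.29 for *H2-DMb2*. Same-numbered samples of the groups had correlations of their deviations of 0.216, -0.247 and -0.161, so they share only a number, and the replicate block called 0 genes. The causes of these shifts were not tested. Depth limits the low genes such as *Ifng* and *H2-Ea*, and how many reads *Ciita* and *H2-DMa* lost to overlapping spans was not tested. Recomputing the ratios of *H2-Aa*, *H2-Eb1* and *Cd74* to *H2-Ab1* without each mouse was chosen after seeing the data, and these 3 kept their sign. For *H2-Aa* and *Cd74* the sign could not change, because the groups did not overlap.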
